A study of Sus scrofa with 16 samples.

Results

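The genes described here were 5 genes of fat synthesis and fatty acid handling, namely stearoyl-CoA desaturase (SCD), the fatty acid elongase ELOVL6, the acyltransferase AGPAT2, the fatty acid binding protein FABP4 and lipoprotein lipase (LPL). Their probe sets were all those whose only gene symbol in the platform annotation was one of these names, which gave 9 of the 24123 probe sets and 5 of 6765 named genes. SCD, AGPAT2 and FABP4 had 1 probe set each, LPL had 2 and ELOVL6 had 4. Of the 9, 6 passed the filter on low values, which asked for a log2 value of at least 4 on at least 4 of the 16 arrays. The 3 that did not were further ELOVL6 probe sets, with values between 2.16 and 3.28 on every array, so that each of the 5 genes had at least 1 tested probe set.

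A cell can make fat from sugar or take fatty acids up from blood. In fat synthesis, new palmitate is lengthened to stearate by ELOVL6, stearate is turned into oleate by SCD, and AGPAT2 adds a second fatty acid to the glycerol backbone on the way to triglyceride. In uptake, LPL at the capillary wall releases fatty acids from circulating lipoproteins, and FABP4 carries fatty acids inside adipocytes, capillary endothelium and some macrophages. In pigs adipose tissue is the main site of fat synthesis, and muscle holds adipocytes between its fibres.

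Expression was measured in psoas major, a loin muscle, and in diaphragm, the main breathing muscle, of 8 Iberian pigs slaughtered at 211 days of age. Of these, 4 animals (2 females, 2 males) had a feeding level restricted by 20% and 4 (2 females, 2 males) a high feeding level. With 1 array for each muscle of an animal, there were 4 arrays each of restricted psoas, high psoas, restricted diaphragm and high diaphragm. The animal numbers of the labels are 2, 3, 5 and 8 for restricted and 1, 4, 6 and 7 for high feeding, and every group is listed in that order below. All pigs were of 1 breed and were fed the same pelleted diet before the restriction, per the labels. The start of the restriction, and any castration of the males, are not stated in the labels.

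The arrays were alike in their overall distribution, with medians between 3.56 and 3.62 and between 11107 and 11243 probe sets at or above 4. The mean of 12 skeletal muscle markers was 14.44 to 14.65 in psoas and 14.28 to 14.42 in diaphragm. Markers of other cells were also present. The mean of 6 hepatocyte markers was 3.14 to 3.88 in psoas and 3.76 to 8.17 in diaphragm, and albumin (ALB) averaged 2.96 in psoas and 7.73 in diaphragm. The difference between the 3′ and 5′ actin control probe sets, a sign of RNA integrity, was 3.07 to 3.85 in psoas and 3.35 to 4.33 in diaphragm, with the diaphragm arrays of animals 1, 2, 3 and 5 above all others. In whole muscle, fewer cells of a type and less RNA per cell cannot be told apart.

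**Figure D1:**
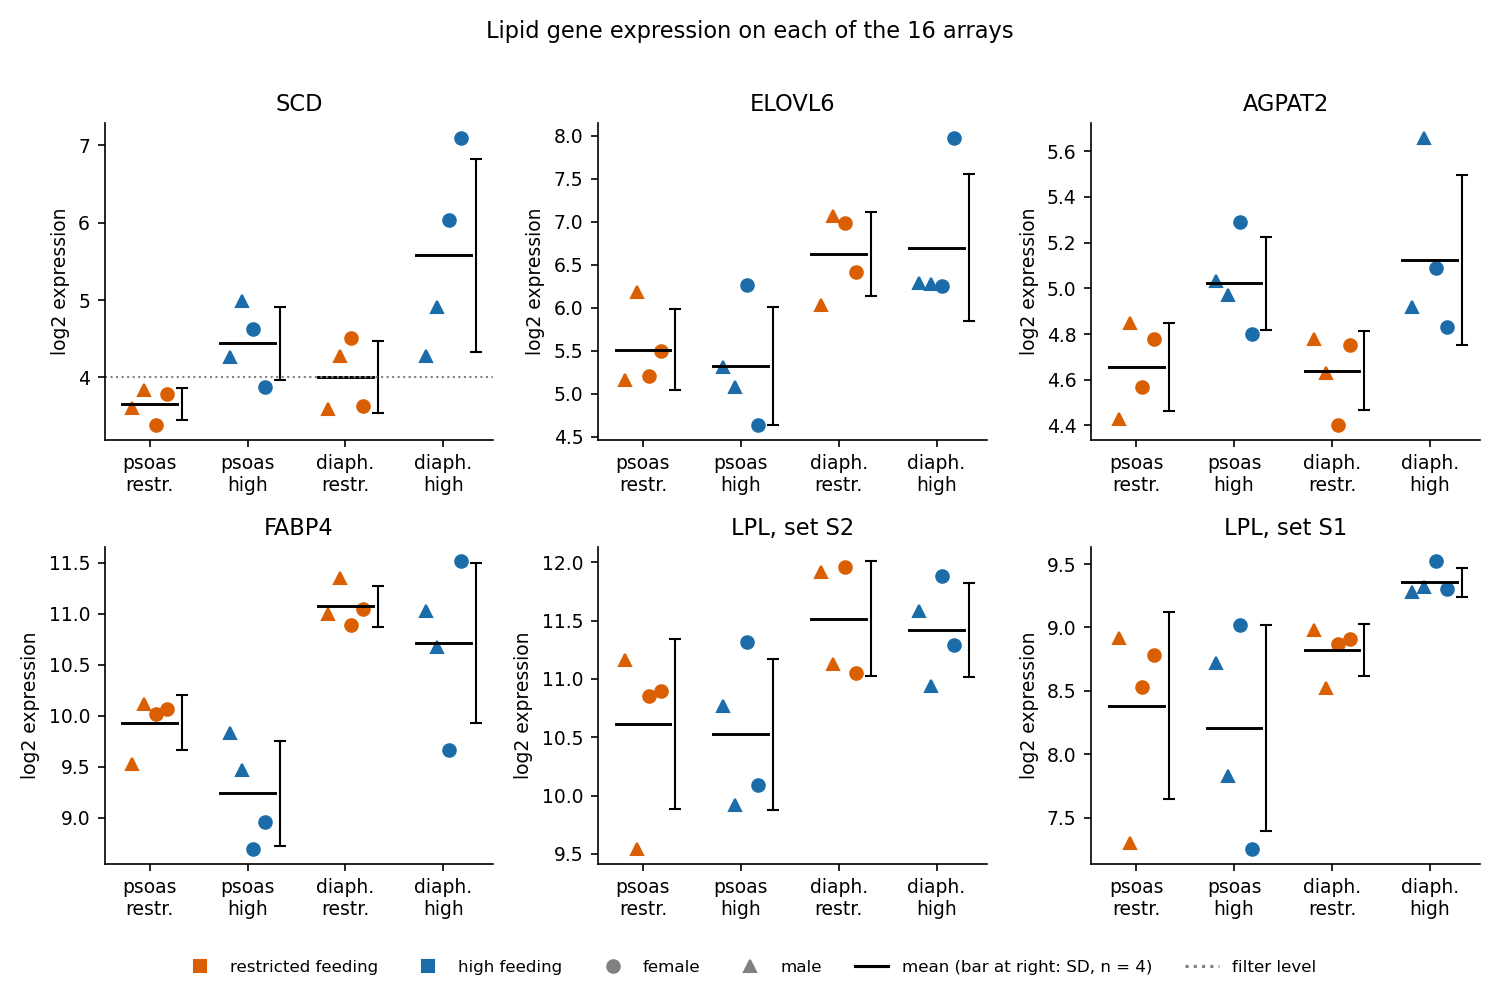
Each panel plots the log2 expression of 1 probe set on the 16 arrays, by muscle and feeding level, with restricted feeding in orange, high feeding in blue, circles for females and triangles for males. Horizontal lines are means, bars at their right are SDs (n = 4), and the dotted line in the SCD panel is the filter level of 4. In psoas all 4 restricted SCD arrays lie under that line, and in diaphragm SCD reaches 7.10 on 1 high-feeding array.

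SCD had lower means with restricted feeding in both muscles, on arrays where much of its signal lay near or under the filter level. In psoas its log2 values were 3.60, 3.84, 3.38 and 3.78 with restricted feeding, against 4.27, 4.99, 4.62 and 3.88 with high feeding. All 4 restricted arrays and that of animal 7 were under the filter level, where values have no firm order, so that only 3 high arrays stood above the restricted ones by a measured amount. The fitted difference in psoas was -0.79 ± 0.22 (SE, 95% interval -1.31 to -0.27, n = 4 each), which did not pass the test of limma, a linear model with moderated variances, after adjustment over all tested probe sets (adjusted p = 0.321). With the restricted arrays set at the filter level, the SCD mean was 1.36-fold lower in restricted psoas than in high psoas. This is not a strict minimum, since the high mean keeps animal 7 at its measured 3.88.

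In diaphragm SCD values were 3.59, 4.28, 4.51 and 3.63 with restricted feeding, against 4.28, 4.91, 6.03 and 7.10 with high feeding. The groups overlapped only through animal 5, whose value exceeded that of animal 1, and the females 6 and 7 stood highest. The fitted difference in diaphragm was -1.58 ± 0.45 (SE, 95% interval -2.64 to -0.53, n = 4 each), with an adjusted p of 0.477 in limma. Without animal 7 it was -1.19. With the 2 restricted arrays under 4 set at 4, the SCD mean was at least 2.61-fold lower in restricted diaphragm than in high diaphragm. Setting values at 4 was added after the data were seen, here, in psoas and over animal means.

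Averaged over both muscles of an animal, SCD was 3.82 ± 0.21 with restricted feeding and 5.01 ± 0.54 with high feeding (SD, n = 4 animals each). All 4 restricted animals lay below all 4 high animals, which held in the same direction for 3.31% of tested probe sets. The fitted difference was -1.19 ± 0.22 (SE, 95% interval -1.70 to -0.68, adjusted p = 0.278 in limma). SCD was at or above 4 on 2 of 8 restricted arrays and 7 of 8 high arrays, so that it entered the test mainly through the high-feeding animals, and its separation and p support nothing on their own. With the 6 restricted arrays under 4 set at 4, the SCD mean was 1.88-fold lower with restriction. Here too the psoas array of animal 7 was left at 3.88, so this is not a strict minimum. The nearest animals were then restricted animal 5 at 4.25 and high animal 1 at 4.28.

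AGPAT2 also had lower means with restricted feeding in both muscles. In psoas its values were 4.43, 4.85, 4.57 and 4.78 with restricted feeding, against 5.03, 4.97, 5.29 and 4.80 with high feeding. Only the 4.85 of animal 3 exceeded the lowest high-feeding value. In diaphragm they were 4.78, 4.63, 4.40 and 4.75 with restricted feeding, against 4.92, 5.66, 5.09 and 4.83 with high feeding, without overlap, as for 2.69% of tested probe sets in that direction. The fitted differences were -0.36 ± 0.15 in psoas (adjusted p = 0.427 in limma) and -0.48 ± 0.18 in diaphragm (adjusted p = 0.50 in limma), each with SE and n = 4 per group. Over 14 alternative fits the AGPAT2 difference ran from -0.46 to -0.27 in psoas and from -0.61 to -0.29 in diaphragm. Over animal means AGPAT2 was 4.65 ± 0.13 with restricted feeding and 5.07 ± 0.22 with high feeding (SD, n = 4 each). These groups again did not overlap, as for 3.31% of tested probe sets in that direction. The AGPAT2 difference over animal means was -0.42 ± 0.13 (SE, 95% interval -0.72 to -0.13, adjusted p = 0.301 in limma), or 1.34-fold lower with restriction. The AGPAT2 signal lay close to the filter level on every array, from 4.40 to 5.66, where the summary method (GCRMA) compresses differences.

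ELOVL6, which acts just before SCD on the route to oleate, showed no such separation. Its psoas values were 5.16, 6.18, 5.21 and 5.49 with restricted feeding, against 5.31, 5.08, 6.26 and 4.63 with high feeding. In diaphragm they were 6.03, 7.07, 6.99 and 6.41 with restricted feeding, against 6.29, 6.28, 6.25 and 7.98 with high feeding. The groups overlapped in both muscles, and 3 of the 4 high diaphragm values lay between 6.25 and 6.29 while animal 7 stood far above them. The differences were 0.19 ± 0.37 in psoas (95% interval -0.68 to 1.06, adjusted p = 0.873 in limma) and -0.08 ± 0.40 in diaphragm (95% interval -1.02 to 0.86, adjusted p = 0.967 in limma; SE, n = 4 each). Intervals of this width leave room for changes of ELOVL6 as large as those fitted for AGPAT2, in either direction.

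FABP4 had higher means with restricted feeding in both muscles. In psoas it was 9.53, 10.11, 10.02 and 10.06 with restricted feeding, against 9.83, 9.47, 8.69 and 8.96 with high feeding. Of the restricted animals only animal 2, the lowest, fell within the high-feeding range. In diaphragm it was 11.00, 11.35, 10.89 and 11.04 with restricted feeding, against 11.02, 10.67, 9.66 and 11.51 with high feeding, where the high-feeding animals spread on both sides of the restricted ones. The fitted differences were 0.69 ± 0.24 in psoas (95% interval 0.13 to 1.26, adjusted p = 0.380 in limma) and 0.36 ± 0.36 in diaphragm (95% interval -0.47 to 1.18, adjusted p = 0.759 in limma; SE, n = 4 each). Over animal means FABP4 was 10.50 ± 0.19 with restricted feeding and 9.98 ± 0.55 with high feeding (SD, n = 4 each), a difference of 0.52 ± 0.25 (SE, adjusted p = 0.419 in limma), which was 0.26 without animal 6.

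LPL was read by a pair of probe sets whose names end in S2 and S1, and which are called S2 and S1 here. In psoas S2 was 11.16, 9.54, 10.85 and 10.90 with restricted feeding, against 10.77, 9.92, 11.32 and 10.09 with high feeding. S1 in psoas was 8.92, 7.30, 8.53 and 8.78 with restricted feeding, against 8.72, 7.83, 9.02 and 7.25 with high feeding. Animals 3, 4 and 7 were the lowest 3 in psoas by both probe sets, and the feeding groups overlapped. The psoas differences were 0.09 ± 0.40 for S2 (95% interval -0.85 to 1.02, adjusted p = 0.952 in limma) and 0.18 ± 0.48 for S1 (95% interval -0.94 to 1.29, adjusted p = 0.910 in limma; SE, n = 4 each).

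In diaphragm the LPL probe sets disagreed. S1 was 8.98, 8.52, 8.87 and 8.91 with restricted feeding, against 9.28, 9.32, 9.52 and 9.30 with high feeding. The S1 groups did not overlap, as for 2.69% of tested probe sets in that direction. The S1 difference was -0.54 ± 0.12 (SE, 95% interval -0.83 to -0.25, adjusted p = 0.472 in limma, n = 4 each). S2 was 11.92, 11.13, 11.96 and 11.05 with restricted feeding, against 11.58, 10.94, 11.88 and 11.29 with high feeding, and its groups overlapped. The S2 difference was 0.09 ± 0.29 (SE, 95% interval -0.58 to 0.76, adjusted p = 0.942 in limma). The restricted animals 2, 3 and 5 and the high-feeding animal 1 had the diaphragm arrays with the high actin 3′ minus 5′ difference. With that difference as a covariate the diaphragm values were -0.54 for S1 (adjusted p = 0.574 in limma) and -0.24 for S2 (adjusted p = 0.839 in limma). Over animal means the LPL differences were 0.09 ± 0.32 for S2 (95% interval -0.64 to 0.82, adjusted p = 0.932 in limma) and -0.18 ± 0.28 for S1 (95% interval -0.84 to 0.47, adjusted p = 0.819 in limma; SE, n = 4 each).

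**Figure D2:**
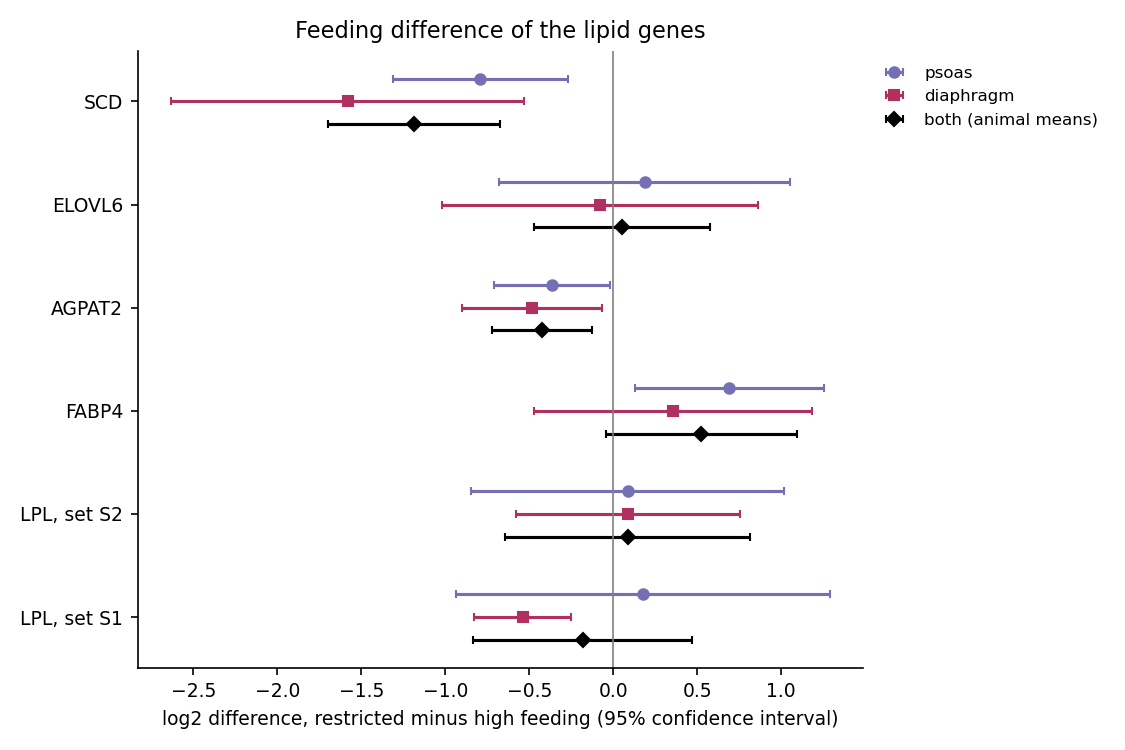
The plot shows the fitted log2 difference, restricted minus high feeding, of each tested probe set in psoas (circles), in diaphragm (squares) and over animal means (diamonds), with 95% confidence intervals. The SCD intervals lie below 0 in all 3 fits, as do those of AGPAT2, while none of the 6 probe sets passed the test after adjustment over all tested probe sets.

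None of the 6 probe sets was called in a feeding comparison, and neither was any other probe set: limma called 0 of 11467 (0%) in psoas, in diaphragm and over animal means. At an unadjusted p under 0.05 there were 11.3% of probe sets in psoas, 9.60% in diaphragm and 12.7% over animal means. In psoas this unadjusted level was reached by SCD, AGPAT2 and FABP4 among the 6 probe sets. In diaphragm it was reached by SCD, AGPAT2 and S1 of LPL, and over animal means by SCD and AGPAT2. The genes were chosen with earlier results of these data known, so these counts cannot be read against the shares of all probe sets. SCD also entered the test mainly through the high-feeding animals. The p-values measure the spread between separate animals, with 4 animals in a group.

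The surrounding pathway gave no feeding call either, and the genes nearest to one are given as values. Of the other fatty acid synthesis genes 4 of 11 listed were tested, with a median difference over animal means of 0.04, against -0.05 over all 4571 tested genes. Malic enzyme (ME1), which supplies NADPH for fat synthesis, was 8.87, 9.18, 8.77 and 9.0 in restricted psoas, against 9.53, 9.36, 9.62 and 9.88 in high psoas, without overlap, as for 2.56% of tested probe sets in that direction (-0.64, adjusted p = 0.321 in limma). In diaphragm the ME1 groups overlapped, with a difference of 0.0064 (adjusted p = 0.996 in limma). Fatty acid synthase (FASN), which makes palmitate, was too low to test on 4 probe sets. Its highest value was 4.85, in the diaphragm of animal 7, and that was the only array on which its most strongly detected probe set reached 4. Acetyl-CoA carboxylase (ACACA), the enzyme before FASN, did not exceed 2.68.

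Of the regulators of fat synthesis, 10 of 22 listed were tested, with a median difference of -0.05 over animal means, the same as over all tested genes. NR1H3 is a sterol-sensing receptor that switches on lipogenic genes. It was 5.33, 5.42, 4.98 and 5.40 in restricted diaphragm, against 5.66, 5.91, 6.14 and 5.79 in high diaphragm (-0.59, adjusted p = 0.477 in limma). Its diaphragm groups did not overlap, as for 2.69% of tested probe sets in that direction. In psoas NR1H3 differed by -0.37 (adjusted p = 0.529 in limma). INSIG1, which holds back the sterol-regulated transcription factors and is itself one of their targets, was 6.83, 6.72, 6.98 and 6.93 in restricted psoas, against 7.28, 8.06, 7.05 and 7.47 in high psoas (-0.60, adjusted p = 0.376 in limma). In diaphragm the INSIG1 difference was 0.03 (adjusted p = 0.962 in limma). The transcription factor SREBF2 differed by -0.41 in psoas (adjusted p = 0.370 in limma) and by -0.08 in diaphragm (adjusted p = 0.889 in limma). SREBF1 and PPARG, master regulators of fat synthesis and of adipocytes, did not exceed 2.46 and 3.68 and were not tested.

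In elongation and desaturation 4 of 21 listed genes were tested besides SCD and ELOVL6. All 4 had lower means with restriction over animal means, with a median of -0.17, against -0.05 over all tested genes. The electron carrier CYB5A differed by only -0.02 over animal means, and by 0.06 in psoas. The elongation enzyme HSD17B12 (-0.39, adjusted p = 0.371 in limma) and the elongase ELOVL1 (-0.22, adjusted p = 0.380 in limma) had the smallest p. In glycerolipid synthesis, the route of AGPAT2, 8 of 22 were tested with a median of -0.12. The related acyltransferase AGPAT5 differed by 0.27 and GPAT4, which catalyses the step before AGPAT2, by -0.34 over animal means (adjusted p = 0.351 and 0.353 in limma).

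The tested genes of fatty acid uptake and of the lipid droplet differed in both directions. Of 25 listed uptake and binding genes 13 were tested, and 7 had higher and 6 lower means with restriction over animal means, with a median of 0.02, against -0.05 over all tested genes. The median was 0.07 in psoas (8 of 13 higher) and -0.06 in diaphragm (9 of 13 lower). ANGPTL4, a secreted inhibitor of LPL, was 6.43, 5.80, 5.41 and 6.20 in restricted psoas, against 5.25, 4.46, 5.05 and 3.68 in high psoas, without overlap, as for 2.42% of tested probe sets in that direction (1.35, adjusted p = 0.321 in limma). In diaphragm ANGPTL4 differed by 0.32 (adjusted p = 0.823 in limma). GPIHBP1, which anchors LPL to the capillary wall, differed by 0.42 in psoas (adjusted p = 0.370 in limma) and by 0.15 in diaphragm (adjusted p = 0.667 in limma). Of 16 lipolysis and droplet genes 6 were tested, with a median of 0.13 over animal means. The droplet coat protein PLIN2 was 6.09, 6.85, 5.88 and 6.50 in restricted diaphragm, against 6.06, 4.50, 5.28 and 5.19 in high diaphragm (1.07, adjusted p = 0.483 in limma), and differed by 1.33 in psoas (adjusted p = 0.498 in limma). The droplet protein FITM1 differed by 0.50 in psoas (adjusted p = 0.321 in limma) and by 0.01 in diaphragm (adjusted p = 0.986 in limma). In psoas ABHD5, a cofactor of triglyceride lipase, differed by -0.56 (adjusted p = 0.403 in limma).

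The other genes of smallest p in these lists were not called either. In diaphragm the restricted minus high differences were -0.32 for SLC25A1 and 0.31 for MCAT among synthesis genes, -0.21 for HACD3 and -0.26 for HSD17B12 among elongation genes, and 0.40 for GPD1 and -0.30 for GPAM among glycerolipid genes. They were -0.22 for AKT2, -1.61 for APOC3, -0.23 for DBI and -0.40 for ABHD5 in the remaining lists there. In psoas they were 0.21 for MCAT, -0.52 for HSD17B12, -0.26 for ELOVL1, 0.27 for AGPAT5 and -0.54 for DGAT1. Over animal means they were -0.32 for ME1, 0.26 for MCAT, -0.48 for NR1H3, -0.25 for SREBF2, 0.28 for GPIHBP1, 0.84 for ANGPTL4, 1.20 for PLIN2 and -0.48 for ABHD5. Adjusted p in limma lay between 0.307 for NR1H3 over animal means and 0.618 for HSD17B12 in diaphragm.

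Markers of other cells were set beside these feeding values. All 7 tested macrophage markers had lower means with restriction over animal means, with a median of -0.39, and 0 of 7 were called. Their mean per array was 4.95 to 5.46 in restricted psoas and 5.31 to 5.87 in high psoas, and 5.35 to 6.31 in restricted diaphragm and 5.6 to 7.07 in high diaphragm. The mean of the 2 tested adipocyte markers was 5.45 to 5.76 in restricted psoas and 5.47 to 5.80 in high psoas, and 5.83 to 7.11 in restricted diaphragm and 5.79 to 8.18 in high diaphragm. One of these markers, adiponectin (ADIPOQ), was under 4 on every psoas array and reached 4 on 4 diaphragm arrays. In psoas the mean thus holds measured signal from adipsin (CFD) alone. Of 6 tested hepatocyte markers 5 had lower means with restriction in diaphragm, with a median of -1.05, and 5 had higher means in psoas, with a median of 0.12. In diaphragm HP differed by -2.54, FGB by -1.61 and ALB by -1.24 (adjusted p between 0.576 and 0.719 in limma). The mean of the 6 was 3.76 to 8.17 in restricted diaphragm and 5.70 to 7.47 in high diaphragm. Of 7 endothelial markers 6 had lower means with restriction in diaphragm (median -0.06), and 4 had higher means in psoas (median 0.06). The largest diaphragm differences went both ways, -0.60 for ENG (adjusted p = 0.477 in limma) and 0.56 for CLDN5 (adjusted p = 0.624 in limma). VWF, CDH5 and ESAM differed there by -0.0051, -0.05 and -0.06. No marker was called for feeding, and the part of these cells in the SCD, AGPAT2, FABP4 and LPL values was not tested.

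Between the muscles 3 of the 5 genes passed the test. FABP4, ELOVL6 and LPL fell in psoas relative to diaphragm. Of the 6 tested probe sets of the 5 genes 4 were called, all lower in psoas, where 12.4% of all tested probe sets were called in that direction and 27.0% in either. AGPAT2 and SCD were not called.

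FABP4 ranged from 8.69 to 10.11 with a median of 9.68 in psoas, against 9.66 to 11.51 with a median of 11.01 in diaphragm. It was lower in the psoas of each of the 8 animals. The difference was -1.31 ± 0.22 (SE, 95% interval -1.78 to -0.84), or 2.48-fold lower in psoas (adjusted p = 0.000805 in limma, n = 8 each). Relative to the other probe sets this placed it at rank 366 by p.

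ELOVL6 ranged from 4.63 to 6.26 with a median of 5.26 in psoas, against 6.03 to 7.98 with a median of 6.35 in diaphragm. It was lower in psoas in 7 of 8 animals, animal 6 having 6.26 in psoas and 6.25 in diaphragm. The difference was -1.25 ± 0.29 (SE, 95% interval -1.86 to -0.64), or 2.37-fold lower in psoas (adjusted p = 0.00571 in limma, n = 8 each).

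LPL by S2 ranged from 9.54 to 11.32 with a median of 10.81 in psoas, against 10.94 to 11.96 with a median of 11.44 in diaphragm. By S1 it ranged from 7.25 to 9.02 with a median of 8.63 in psoas, against 8.52 to 9.52 with a median of 9.13 in diaphragm. Both probe sets were lower in the psoas of all 8 animals. The differences were -0.90 ± 0.25 for S2 (SE, 1.87-fold lower in psoas, adjusted p = 0.0164 in limma) and -0.80 ± 0.27 for S1 (SE, 1.74-fold lower in psoas, adjusted p = 0.0388 in limma), with n = 8 each. The S1 call was lost without any 1 of animals 1, 3, 4, 5 or 7, with adjusted p up to 0.104.

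SCD ranged from 3.38 to 4.99 with a median of 3.86 in psoas, against 3.59 to 7.10 with a median of 4.40 in diaphragm. It was lower in psoas in 5 of 8 animals, with differences of -3.22 in animal 7 and -1.41 in animal 6. That count includes animal 1, at only -0.02. In animals 2 and 8 both SCD arrays were under the filter level, where values have no firm order. The SCD difference of -0.75 ± 0.32 (SE, 95% interval -1.43 to -0.06, adjusted p = 0.0967 in limma, n = 8 each) was -0.39 without animal 7. AGPAT2 averaged 4.84 ± 0.27 in psoas and 4.88 ± 0.37 in diaphragm (SD, n = 8 each). Its difference was -0.04 ± 0.12 (SE, 95% interval -0.30 to 0.21, adjusted p = 0.811 in limma), so that a muscle difference of AGPAT2 beyond that interval was not seen.

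**Figure D3:**
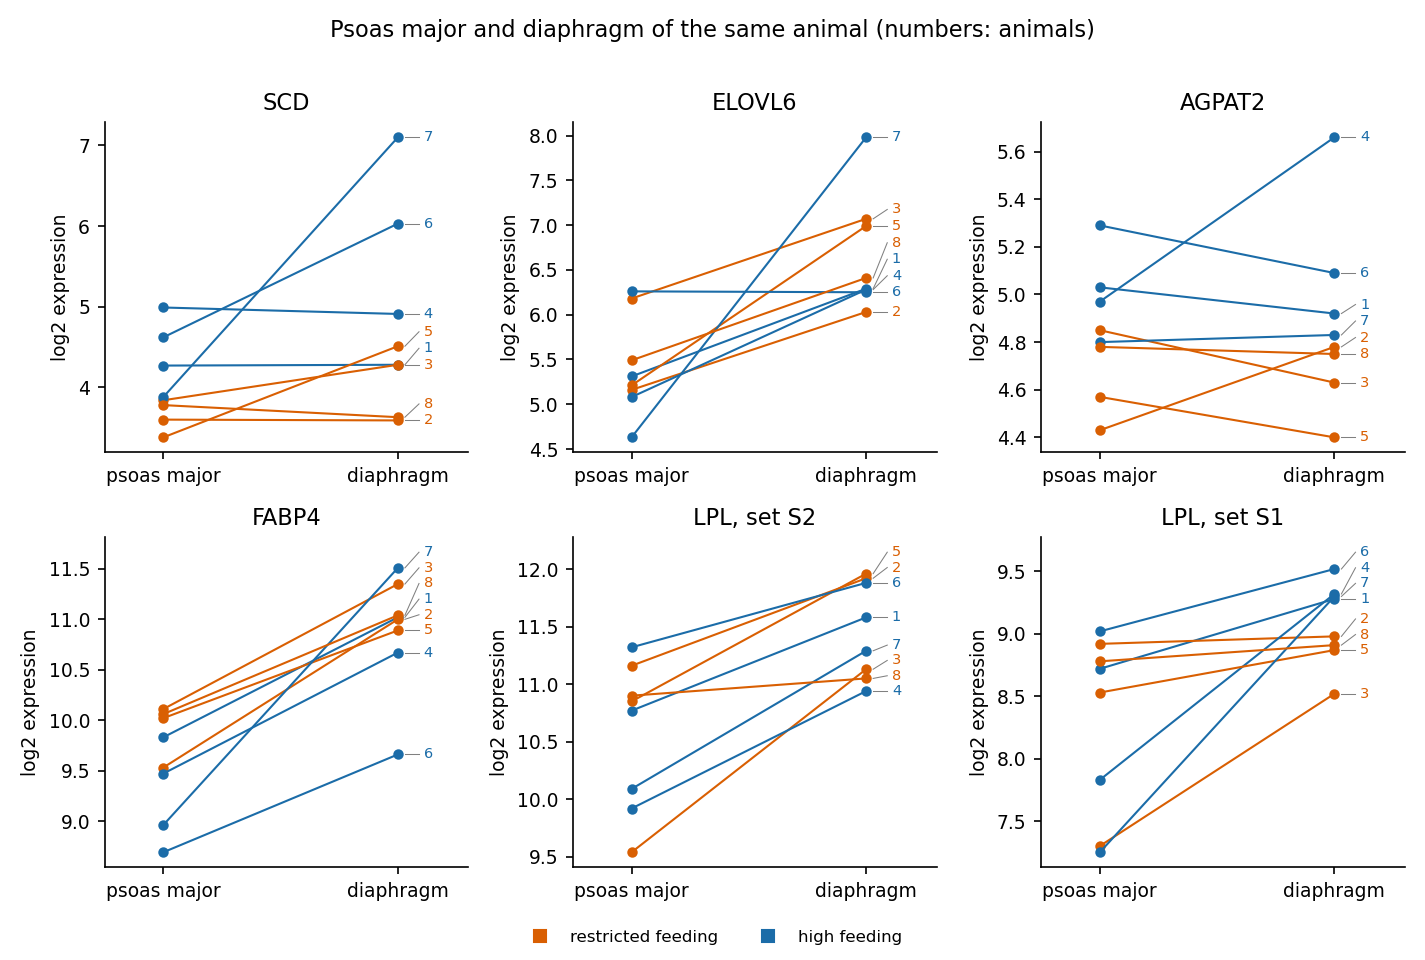
Lines join the log2 expression in psoas major and diaphragm of the same animal for each tested probe set, with the animal number at the diaphragm value, restricted feeding in orange and high feeding in blue. All 8 lines of FABP4 and of both LPL probe sets climb towards diaphragm, 7 of 8 do so for ELOVL6, and the AGPAT2 lines run both ways.

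These calls were made with RNA quality differing between the arrays. In the 4 animals whose diaphragm arrays had the lower actin 3′ minus 5′ difference (4, 6, 7 and 8, a choice made after the data were seen), the psoas minus diaphragm differences were -1.42 for FABP4, -1.36 for ELOVL6, -0.73 for LPL S2 and -1.04 for LPL S1. None of them was called there (adjusted p between 0.0930 and 0.205 in limma), with 405 probe sets called in all against 3094 with 8 animals. In the smaller set animals 4, 6 and 7 had high feeding and only animal 8 restricted feeding, and animal 4 was the only male. That set thus differed from all 8 animals in feeding level and sex as well as in RNA quality. With the actin difference as a covariate SCD was called (-1.02, adjusted p = 0.0499 in limma) and LPL S2 was not (-0.79, adjusted p = 0.0685 in limma). SCD was under the filter level on 5 of 8 psoas arrays, where values have no firm order, so the size of its difference is not firm.

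The order of the 4 groups differed between the genes. For ELOVL6 and LPL S2 both psoas means lay below both diaphragm means, with neighbours overlapping at every step. FABP4 averaged 9.93 ± 0.27 in restricted psoas and 9.24 ± 0.51 in high psoas, and 11.07 ± 0.20 in restricted diaphragm and 10.71 ± 0.79 in high diaphragm (SD, n = 4 each), with both psoas means below both diaphragm means and neighbours overlapping. SCD averaged 3.65 ± 0.21 in restricted psoas and 4.44 ± 0.48 in high psoas, and 4.0 ± 0.46 in restricted diaphragm and 5.58 ± 1.24 in high diaphragm (SD, n = 4 each), with both restricted means below both high means and overlap at each step. AGPAT2 likewise had both restricted means (4.66 in psoas, 4.64 in diaphragm) below both high means (5.02 in psoas, 5.12 in diaphragm). Only the LPL S1 means of restricted diaphragm (8.82 ± 0.21) and high diaphragm (9.36 ± 0.11) were neighbours without overlapping arrays.

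**Figure D4:**
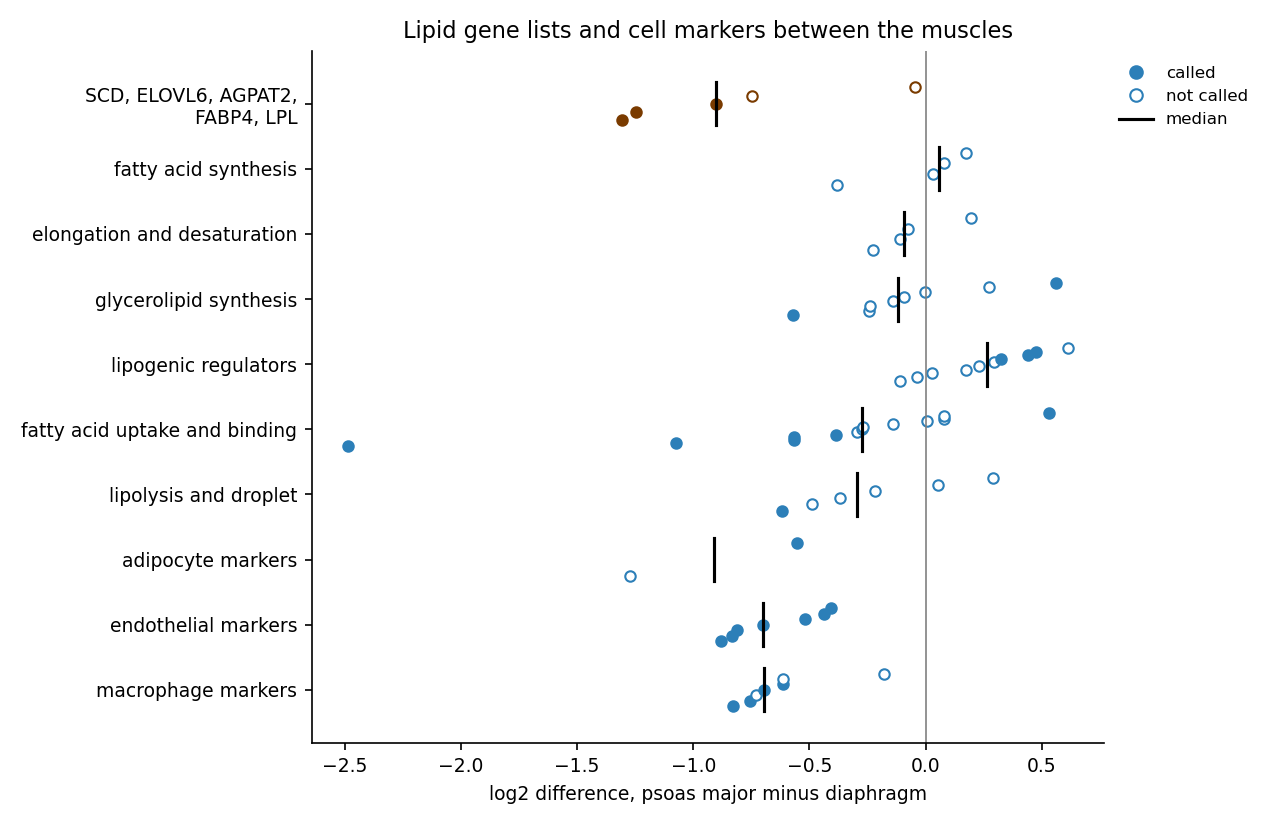
Each point is the log2 difference, psoas major minus diaphragm, of 1 gene, by gene list. Filled points passed limma's test after adjustment, open points did not, and short vertical lines are list medians. The median of SCD, ELOVL6, AGPAT2, FABP4 and LPL is -0.90, and all 7 endothelial markers lie left of 0 and are filled.

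The rest of the pathway did not follow 1 direction between the muscles, where all 4571 tested genes had a median difference of 0.04, with 17.3% called higher and 12.2% called lower in psoas. None of the 4 tested fatty acid synthesis genes was called (median 0.06), and the mitochondrial citrate carrier SLC25A1 (-0.38) and MCAT (0.17) had the smallest p there. Nor was any of the 4 elongation and desaturation genes (median -0.09), with ELOVL1 at -0.22 and the electron carrier CYB5A at -0.11. Of 8 glycerolipid genes the phosphatidate phosphatase LPIN1 rose in psoas (0.56) and GPAT4 fell (-0.57), with a median of -0.12. Of 10 regulators 3 rose in psoas and none fell, with a median of 0.26: SREBF2 (0.44), the kinase subunit PRKAA2 of AMPK (0.32) and the transcription factor KLF15 (0.48).

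The uptake genes fell more often than they rose. Of 13 tested 5 fell in psoas and 1 rose, with a median of -0.28. Caveolin 1 (CAV1, -0.57), the fatty acid binding protein FABP5 (-0.39), the acyl-CoA synthetase ACSL5 (-0.57), ANGPTL4 (-1.07) and the liver apolipoprotein APOC3 (-2.49) fell, and the lipoprotein receptor VLDLR (0.53) rose. APOC3 was under 4 on every psoas array (highest 3.16) and entered the test through diaphragm alone, so its fall supports nothing on its own. Among 6 lipolysis and droplet genes the lysosomal lipase LIPA fell (-0.62), with a median of -0.29.

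The tested endothelial, macrophage and hepatocyte markers had lower means in psoas than in diaphragm, as did FABP4, ELOVL6 and LPL. All 7 tested endothelial markers fell in psoas (median -0.70), such as PECAM1 (-0.88) and VWF (-0.83), with a mean per array of 6.76 to 7.29 in psoas and 7.41 to 8.06 in diaphragm. Of 7 macrophage markers 4 fell in psoas (median -0.70), such as CD74 (-0.83) and MRC1 (-0.76), with a mean of 4.95 to 5.87 in psoas and 5.35 to 7.07 in diaphragm. All 6 tested hepatocyte markers fell in psoas (median -2.62), ALB by most (-4.77). ALB, FGB, HP and TF were under 4 on every psoas array, with highest values of 3.97, 3.49, 2.57 and 2.30. They entered the test through diaphragm alone, so their fall supports nothing on its own. Of 12 skeletal muscle markers 3 were called higher and 2 lower in psoas (median 0.02), the largest being the fast myosin MYH2 (2.74). The part of these cells in the differences of FABP4, ELOVL6 and LPL was not tested.

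Only 2 of 14 listed adipocyte markers were tested, adipsin (CFD) and adiponectin (ADIPOQ), a hormone made by adipocytes. CFD ranged from 8.40 to 9.43 in psoas, against 9.21 to 9.85 in diaphragm, and fell in psoas (-0.55, adjusted p = 0.0118 in limma). ADIPOQ was under 4 on all 8 psoas arrays, where its highest value was 3.02. In diaphragm ADIPOQ was 2.23, 4.38, 2.35 and 4.36 with restricted feeding, against 4.20, 2.44, 2.17 and 6.52 with high feeding. It thus reached 4 in animals 3 and 8 of the restricted group and in animals 1 and 7 of the high group, and its muscle difference of -1.27 was not called (adjusted p = 0.0877 in limma). Leptin (LEP), RETN, CIDEA, ADRB3 and PCK1 were under 4 on all 16 arrays.

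The diaphragm array of animal 7 had the highest ADIPOQ value. The same array had the highest SCD (7.10), ELOVL6 (7.98) and FABP4 (11.51) values of the series. That array had the highest mean of the endothelial markers too (8.06). It also held the highest FASN and DGAT2 values (4.85 and 4.38), DGAT2 being an enzyme that completes triglyceride. Its AGPAT2 (4.83) was the lowest of the high-feeding diaphragms, and its LPL was within the range of the others. The second-highest SCD value, 6.03 in animal 6, came with ADIPOQ at 2.17 and with the lowest FABP4 of any diaphragm array (9.66). High SCD and high FABP4 therefore did not always occur on the same array. The part of adipocytes and of endothelial cells in these values was not tested.

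**Figure D5:**
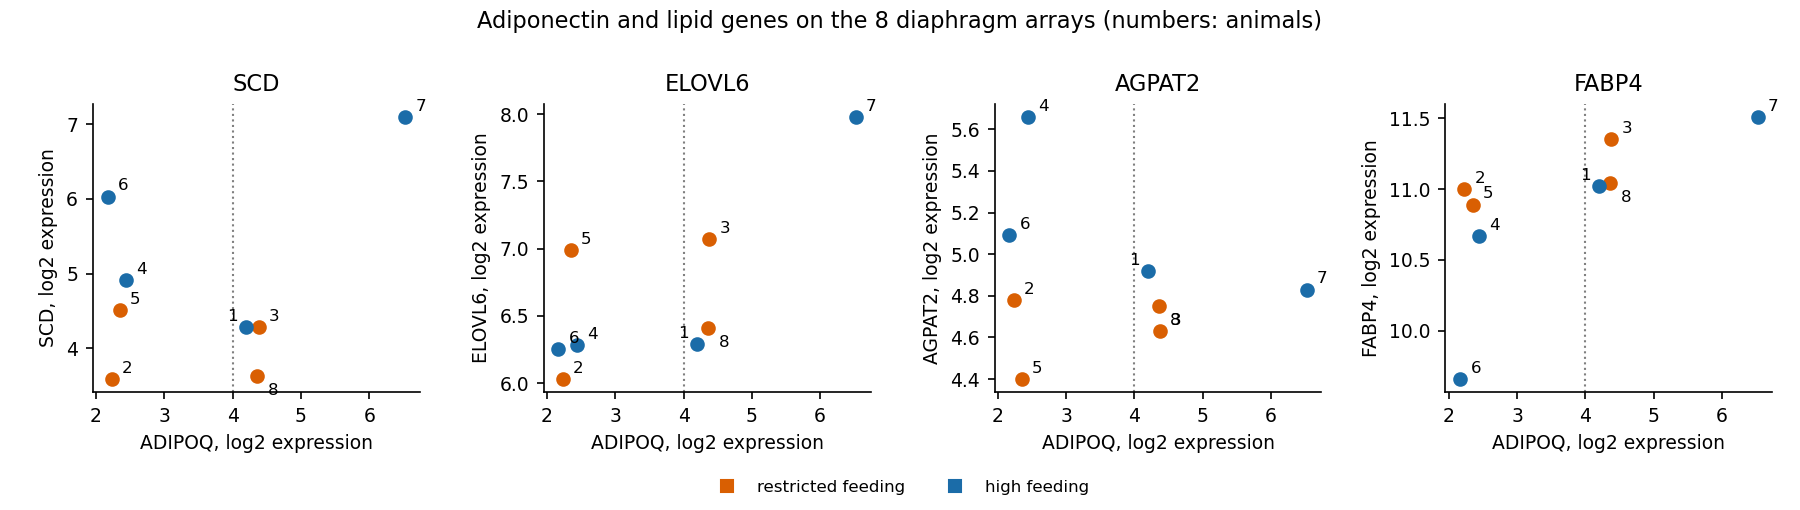
Panels plot the log2 expression of SCD, ELOVL6, AGPAT2 and FABP4 against that of ADIPOQ on the 8 diaphragm arrays, labelled by animal, with restricted feeding in orange and high feeding in blue and a dotted line at an ADIPOQ value of 4. Animal 7 stands alone at 6.52 on the ADIPOQ axis and is highest for SCD, ELOVL6 and FABP4, while animal 6 has high SCD (6.03) and low FABP4 (9.66) at an ADIPOQ value of 2.17.

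A dependence of the muscle difference on feeding was tested on the values of psoas minus diaphragm per animal, and limma called 0 of 11467 probe sets (0%), with 6.07% at an unadjusted p under 0.05. SCD averaged -0.35 ± 0.58 in restricted animals and -1.14 ± 1.54 in high animals (SD, n = 4 each), a difference of 0.79 ± 0.54 (SE, 95% interval -0.43 to 2.01, adjusted p = 0.847 in limma), which was 0.22 without animal 7. LPL S1 averaged -0.44 ± 0.53 in restricted animals and -1.15 ± 0.75 in high animals (SD), a difference of 0.71 ± 0.40 (SE, 95% interval -0.20 to 1.63, adjusted p = 0.844 in limma), which was 0.34 without animal 7. LPL S2 gave -0.90 in restricted and -0.90 in high animals. For ELOVL6, AGPAT2 and FABP4 the differences were 0.27, 0.12 and 0.34, with intervals that included 0.

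Females and males were compared over animal means, where 0.183% of probe sets were called and none of the 6 described here. SCD averaged 4.61 ± 0.92 in females and 4.22 ± 0.57 in males (SD, n = 4 each), a difference of 0.39 ± 0.22 (SE, 95% interval -0.12 to 0.90, adjusted p = 0.660 in limma), which was 0.18 without animal 1. FABP4 averaged 10.10 ± 0.63 in females and 10.37 ± 0.28 in males (SD), a difference of -0.27 ± 0.25 (SE, adjusted p = 0.816 in limma), which was -0.0023 without animal 6. For ELOVL6, AGPAT2, LPL S2 and LPL S1 the female minus male differences were 0.23, -0.10, 0.30 and 0.16, each with an interval that included 0.

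For each probe set the 3 most similar of 4566 other tested genes were found by Pearson correlation over the 16 arrays after each muscle's mean was subtracted. These arrays come from 8 animals and share feeding level and sex, so the values are descriptions. SCD was most like TEAD1 (0.868), PDK3 (0.812) and TALDO1 (0.809), and 1% of genes lay above 0.700. ELOVL6 was most like PPP1R16B (0.777), ALDOC (0.757) and ARL6IP1 (0.697). AGPAT2 was most like PHLDA2 (0.870), LOC100521082 (0.865) and WDR13 (0.859). FABP4 was most like CDH13 (0.816), PEX3 (0.779) and CPT1A (0.761). LPL S2 was most like OXCT1 (0.810), NELFCD (0.80) and GATA2 (0.797). LPL S1 was most like MIPEP (0.863) and the slow fibre genes MYL3 (0.835) and MYH7 (0.820). Its correlations with MIPEP, MYL3 and MYH7 were 0.962, 0.867 and 0.891 in psoas, but 0.390, 0.657 and 0.322 in diaphragm. No gene was named for more than 1 of the 6 probe sets.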

How the data were processed

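Each probe set had 1 log2 expression value per array, as deposited by the authors. The submitters' processing notes name GCRMA, with no version and no word on joint processing of the 16 arrays. This method corrects background from probe sequence and summarises each probe set, which compresses values near the floor. Of 24123 probe sets, 10099 had 1 symbol in the platform annotation, 198 several and 13826 none. After leaving out 124 control probe sets, 11467 with log2 of at least 4 on at least 4 arrays were tested.

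Linear models were fitted with limma 3.58.1 (lmFit, eBayes) under R 4.3.3, and a probe set was called at a Benjamini-Hochberg adjusted p under 0.05 over all tested probe sets. Every adjusted p is limma's. Feeding levels were compared within each muscle with sex as a covariate, and over the mean of an animal's arrays, since the animal is the replicate. Muscles were compared on 16 arrays with sex and feeding as covariates and no animal term. The main muscle fit thus left out the pairing of arrays, and the animal as a block was an alternative. The scripts were also tested on simulated data. Arrays of an animal are paired by the labels' animal numbers, and their residuals correlated at 0.269 to 0.409 in 8 of 8 animals. In gene lists the tested probe set with the highest mean stood for its gene. No sequence or genome position was used.

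The genes named are every probe set of the 5 genes, per list the called genes (up to 6) or else the 2 of smallest p, and the 3 most similar genes, with cell markers mostly given as counts. The genes and lists were chosen with earlier results of these data known. Alternatives were no filter, a log2 minimum of 6, quantile normalization, eBayes with trend and robust fitting, fits without covariates, an actin 3′ minus 5′ covariate, the animal as a block, leaving out each animal and, added after the data were seen, values under 4 set at 4 for feeding. The number of arrays limits the precision.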

Additional observations from a re-analysis of the deposited data

Results flagged for a closer look

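Values standing apart within a group of 4 arrays were looked for in 24 groups by Dixon's criterion, which picks out about 5% of groups by chance, and 2 were found. ELOVL6 in high-feeding diaphragm was 7.98 in animal 7, far above the other 3 animals, with a gap of 0.973 of the group's range. FABP4 in restricted psoas was 9.53 in animal 2, below the other 3 animals, with a gap of 0.850 of the range.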

How the results depend on the processing

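No feeding comparison called any of the 6 probe sets under any alternative. Over animal means SCD stayed between -1.40 and -0.93 (adjusted p between 0.119 and 0.631 over 15 alternatives) and AGPAT2 between -0.51 and -0.35 (adjusted p between 0.177 and 0.631). With values under 4 set at 4, chosen after seeing the data, the SCD differences were -0.47 in psoas (adjusted p = 0.433 in limma), -1.39 in diaphragm and -0.93 over animal means. A log2 minimum of 6 leaves out SCD and AGPAT2, so it gave them no value. Calls over all probe sets, 0 in each feeding comparison, were 1 in diaphragm with no filter, 1 there with a minimum of 6, 2 there without the sex covariate and 2 in psoas with no filter. Leaving out each animal gave 0 to 2 in diaphragm (2 without animal 3), 0 to 1 in psoas (1 without animal 3) and 0 to 1 over animal means (1 without animal 3 or 6).

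Between muscles FABP4 and ELOVL6 were called in 15 of 16 alternatives, LPL S2 in 14 and LPL S1 in 9. All were lost with animals 4, 6, 7 and 8 alone, which has 8 arrays in place of 16 and called 405 probe sets. LPL S1 was also lost with no filter (adjusted p = 0.103). The muscle count was 2162 to 2906 without each animal, and 3836 with the animal as a replicate block, which kept every call of the 6 probe sets. The random animal block gave 0 calls for feeding and 39 for sex, where leaving out animals gave 13 to 23 (13 without animal 2 or 3).

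With the actin covariate the sign turned for LPL S2 in diaphragm (-0.24), and in psoas for ELOVL6 (-0.025), LPL S2 (-0.11) and LPL S1 (-0.13). The cause was not tested. Leaving out each animal turned the sign of values that were not called. Feeding in diaphragm: ELOVL6 -0.36 to 0.33, FABP4 -0.020 to 0.72, LPL S2 -0.10 to 0.31. Feeding in psoas: ELOVL6 -0.082 to 0.57, LPL S2 -0.22 to 0.43, LPL S1 -0.25 to 0.57. Feeding over animal means: ELOVL6 -0.21 to 0.20, LPL S2 -0.16 to 0.32, LPL S1 -0.42 to 0.062. Muscle: AGPAT2 -0.082 to 0.047. Muscle by feeding: ELOVL6 -0.42 to 0.93, AGPAT2 -0.060 to 0.25, FABP4 -0.082 to 0.55, LPL S2 -0.25 to 0.21. Sex: LPL S1 -0.082 to 0.40.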
